A study of Mus musculus with 48 samples.

Results

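The 8 genes of tripartite motif (TRIM) proteins on a glial expression panel were compared in hippocampal microglia of mouse pups from 3 rearing groups. They were taken as every row of the tables whose symbol is Trim followed by a number, and they made up 8 of 478 genes. None had a letter after the number, and all 8 symbols matched a mouse RefSeq gene, out of 68 protein-coding symbols of that form in the same RefSeq list. The members were Trim2, Trim3, Trim17, Trim26, Trim35, Trim37, Trim45 and Trim68. Other TRIM genes were not analysed here.

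The pups were 17 days old and of the strain labelled Balbc/Byj, with no transgene or deletion named. The groups are labelled CTL (control rearing), LB and UPS, with 16 animals in each, 8 males and 8 females. Both LB and UPS model early-life stress, the first by scarce bedding and nesting material and the second by unpredictable stress in addition, as background. From each hippocampus 60000 microglia were sorted after a density gradient, and transcripts were counted from the lysate on the nCounter platform, which reads barcoded probes directly, in 4 batches that each held 2 animals per group and sex. Per the labels, 4 to 5 litters supplied the 8 animals of a group and sex, and littermates count as independent in the p-values, which are too small where littermates are alike. All 10 microglial markers looked for (among them Cx3cr1, P2ry12 and Tmem119) were on the tables, as were 8 of 26 markers of other cells, but levels were not analysed here, so the purity of the cells could not be checked.

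TRIM proteins are defined by a RING finger, 1 or more B-boxes and a coiled coil at the amino end, followed by a carboxy-terminal part that differs between members and binds substrates. Most act as E3 ubiquitin ligases: the RING recruits a ubiquitin-loaded conjugating enzyme and passes ubiquitin to the bound target, which is then degraded or altered in its signalling. In macrophages and microglia several members are known for setting the strength of antiviral and inflammatory signalling downstream of Toll-like and cytosolic RNA receptors. Others are known for roles outside immunity, in neurons, peroxisomes or centrosomes.

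No Trim gene passed the threshold in any pair of rearing groups. All ratios and p-values come from the authors' deposited tables, made with nSolver per the series text. The p-values were Benjamini-Hochberg adjusted over the 478 genes of each table, with a threshold of 0.05. Between CTL and LB 0 of 8 passed, where 0% of all genes did. Between CTL and UPS 0 of 8 passed, where 4.81% of all genes did, and between LB and UPS 0 of 8, where 6.28% did. At an unadjusted p below 0.05 there were 2 of 8 between CTL and LB (11.7% of all genes), 1 of 8 between CTL and UPS (16.3%) and 2 of 8 between LB and UPS (18.8%). These 5 values belonged to 3 genes, Trim3, Trim17 and Trim35, and 31.6% of all genes had such a p in at least 1 pair. Trim35 came nearest to the threshold, with an adjusted p of 0.0519 between LB and UPS in the authors' deposited table.

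Which of a pair's groups is divided by which is not stated in the table headers. Should the first-named group be the denominator, a positive sign means more transcript in LB or UPS than in CTL, and in UPS than in LB. The opposite reading turns the sign of all 3 tables together. Signs are therefore given as deposited, and statements on which group lay between the other two hold under both readings. Standard errors (SE) and 95% intervals were recovered from each ratio and its p. In such bulk samples a lower transcript level in each cell and fewer cells that carry the transcript cannot be told apart. Values for single animals were not analysed here, so no overlap between animals can be given.

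**Figure D1:**
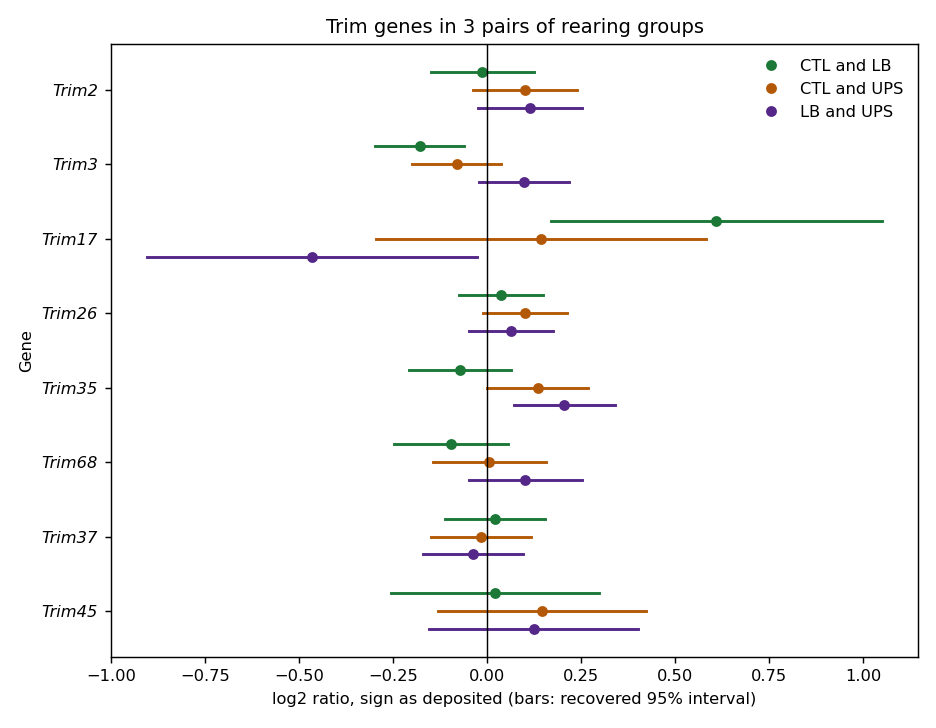
Log2 ratios of the 8 Trim genes in 3 pairs of rearing groups (points, sign as deposited) with the 95% interval recovered from the deposited p (bars). Most intervals include 0, and those of Trim17 and Trim45 are the widest, with half-widths of 0.438 and 0.277.

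Trim2 and Trim3 share a carboxy-terminal NHL repeat domain and are best known from neurons. Trim3 is a ligase of postsynaptic scaffold proteins and has also been tied to signalling of the RNA receptor TLR3. Its log2 ratio for CTL and LB was -0.179 in the authors' deposited table (p = 0.00412, adjusted p = 0.194), a 0.883-fold ratio with a recovered interval from 0.813-fold to 0.959-fold. This was the ninth smallest p of the CTL and LB table, in which no gene passed.

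The ratio of Trim3 between CTL and UPS had the same sign and was smaller, -0.0806 in the authors' deposited table (p = 0.179). Between LB and UPS it was 0.0984 in the authors' deposited table (p = 0.103), with a recovered interval from -0.02 to 0.22. UPS thus lay between CTL and LB for Trim3, and neither of its distances to the other two had an unadjusted p below 0.05.

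Trim2, a ligase that ubiquitinates the neurofilament light chain, did not share this order. The log2 ratios in the authors' deposited tables were -0.0123 for CTL and LB (p = 0.858), 0.101 for CTL and UPS (p = 0.144) and 0.114 for LB and UPS (p = 0.102). CTL and LB lay close together and UPS apart, with a recovered interval from -0.02 to 0.25 for LB and UPS, which includes 0.

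Trim17, Trim26, Trim35 and Trim68 end in a PRY-SPRY domain, the substrate-binding part found in many of the antiviral members. Trim35, first described as a growth-suppressing gene of blood cells, is known to promote degradation of the interferon regulatory factor IRF7 and so to dampen interferon production after TLR7 and TLR9 engagement. Its log2 ratio was 0.206 between LB and UPS in the authors' deposited table (p = 0.00357, adjusted p = 0.0519), or 1.15-fold with a recovered interval from 1.05-fold to 1.27-fold. It ranked at position 32 of 478 by p, directly behind the 30 genes that passed and Pmp22, a myelin membrane protein gene with the same adjusted p.

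The other 2 log2 ratios of Trim35 in the authors' deposited tables were 0.135 for CTL and UPS (p = 0.0493, adjusted p = 0.304) and -0.0718 for CTL and LB (p = 0.293). CTL therefore lay between the stress groups, nearer to LB than to UPS. The call between LB and UPS depended on the form of the test: with the ratios centred on the median of all genes its adjusted p was 0.0395 (7.11% of all genes passed), and with a normal distribution in place of the t it was 0.0298 uncentred and 0.0203 centred (8.58% of all genes in either case). With 1 adjustment over the p-values of all 3 tables it was 0.0742 (5.86% of all genes passed), and a threshold of 0.1 in the original table, which 10% of all genes passed, would have included it. Its log2 ratio stayed at the deposited 0.206 in the settings without centring, since nothing was refitted. Centring made it 0.216 by subtracting the same median from every gene, so the size of this shift says nothing about stability.

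Trim17, known from neurons, where it promotes apoptosis and degradation of the survival protein MCL1, had the least precise ratios of the 8, and the largest ones for CTL and LB and for LB and UPS. For CTL and UPS the log2 ratio of Trim45 was slightly larger in the authors' deposited table (0.146 beside 0.144). For CTL and LB, the log2 ratio of Trim17 was 0.609 in the authors' deposited table (p = 0.00757, adjusted p = 0.207), which is 1.52-fold with a recovered interval from 1.13-fold to 2.07-fold. By size this was the fourth largest ratio of the CTL and LB table. Between LB and UPS it was -0.465 in the authors' deposited table (p = 0.0373, adjusted p = 0.217), with a recovered interval from -0.90 to -0.03.

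Between CTL and UPS the ratio of Trim17 was 0.144 in the authors' deposited table (p = 0.515), with a recovered interval from -0.29 to 0.58. LB was the group that stood apart, and UPS lay between CTL and LB. The recovered SE of Trim17 was 0.217, which is 4.32 times the median over all genes and larger than that of 96.9% of them.

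Trim26 lies in the major histocompatibility complex and is known to target nuclear IRF3, the factor that starts interferon beta transcription. Its log2 ratios in the authors' deposited tables were 0.0371 between CTL and LB (p = 0.506), 0.102 between CTL and UPS (p = 0.0736) and 0.0645 between LB and UPS (p = 0.251). It was the most precisely measured member, with a recovered SE of 0.0556, and its interval between CTL and UPS ran from 0.993-fold to 1.16-fold.

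The start of Trim26 is shown because, of the member promoters at hand, it held the most copies of the interferon-stimulated response element (ISRE). Of the 8 genes, Trim2, Trim26, Trim37, Trim45 and Trim68 had RefSeq promoter windows (GRCm38.p6), 9 in all and 5 of them for Trim2, each of 250 bases before and 50 after a start. Trim3, Trim17 and Trim35 had none. The ISRE was searched as 2 copies of GAAA in a row, 2 bases apart, on both strands, and 3.44% of all 32851 windows held it. In the 250 bases before the start of Trim26 it occurred in 2 overlapping copies on the reverse strand, which begin 160 bases before the start and are in capitals below (plus strand, chr17:36836896-36837145).
Trim26: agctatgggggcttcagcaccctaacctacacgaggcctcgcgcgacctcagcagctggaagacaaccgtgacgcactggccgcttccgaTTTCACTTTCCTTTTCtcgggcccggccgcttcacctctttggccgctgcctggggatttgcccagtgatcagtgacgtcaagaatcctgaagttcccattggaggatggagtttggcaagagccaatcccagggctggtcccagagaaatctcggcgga
Of the 5 Trim2 windows 1 also held the element. The gamma-activated site, TTC and GAA 3 bases apart, was in 1 of the 9 windows, that of Trim45 (8.3% of all windows). The glucocorticoid response element, AGAACA and TGTTCT 3 bases apart, was in 0 of the 9 (0.00913% of all windows). These are matches of letters and say nothing about binding.

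Trim68, an autoantigen in lupus and Sjögren syndrome and a coactivator of the androgen receptor, completes the PRY-SPRY group. In the authors' deposited tables its log2 ratios were -0.0953 between CTL and LB (p = 0.208), 0.00661 between CTL and UPS (p = 0.93) and 0.102 between LB and UPS (p = 0.179). CTL and UPS lay together and LB apart from both, within a recovered interval from -0.25 to 0.06 between CTL and LB. Trim35 and Trim68 had the same sign in each of the 3 pairs, while Trim17 had the opposite sign to both between CTL and LB and between LB and UPS. Trim26 was positive in all 3 pairs. No ratio of Trim26 or Trim68 had an unadjusted p below 0.05, so their signs are uncertain.

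Trim37 and Trim45 have other carboxy-terminal parts. Trim37, with a MATH domain, stabilises the peroxisomal import receptor PEX5 and restrains centrosome assembly. It had the smallest spread of group values: its log2 ratios were 0.0218 between CTL and LB, -0.0148 between CTL and UPS and -0.0366 between LB and UPS in the authors' deposited tables (p from 0.582 to 0.823). The recovered interval between LB and UPS ran from 0.889-fold to 1.07-fold.

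Trim45, with a filamin-type domain, is known as a repressor of MAP kinase-driven transcription. In the authors' deposited tables it was at 0.0216 between CTL and LB (p = 0.877), 0.146 between CTL and UPS (p = 0.294) and 0.124 between LB and UPS (p = 0.369). UPS lay apart from CTL and LB, as for Trim2, and again the intervals included 0. The recovered SE of Trim45, 0.137, was larger than that of 92.1% of genes, so its 95% interval between LB and UPS spans 0.899-fold to 1.32-fold.

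**Figure D2:**
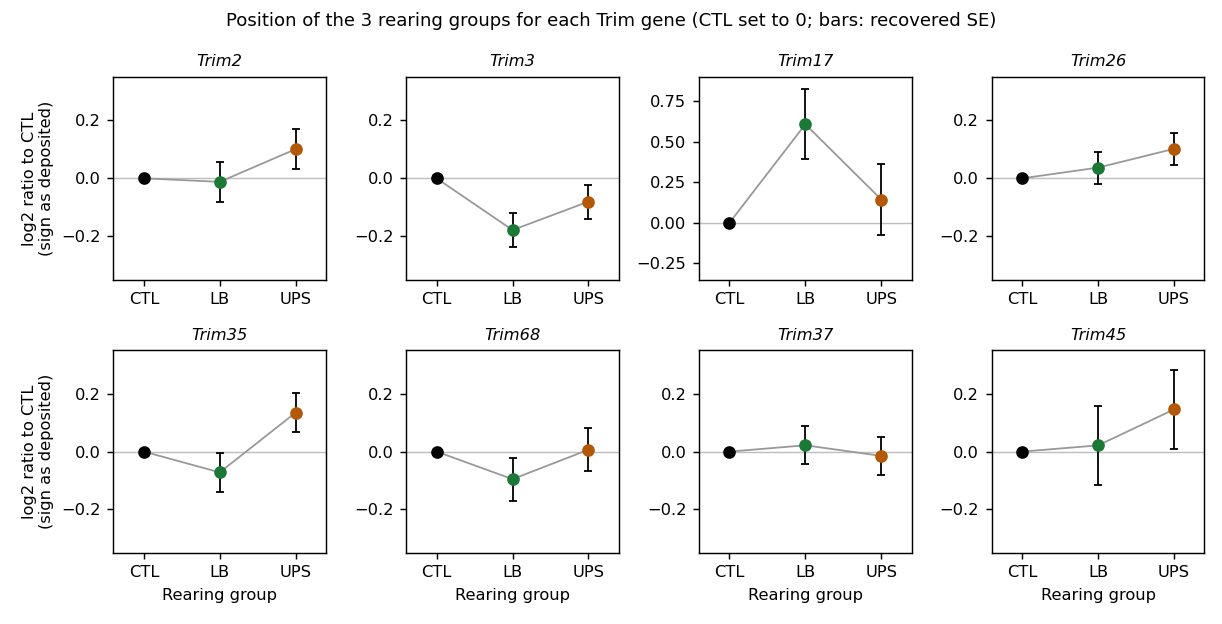
Log2 ratio of LB and UPS to CTL, which is set to 0, for each Trim gene (sign as deposited, bars 1 recovered SE). The vertical scale of Trim17 is wider than that of the other 7 genes. LB stands apart for Trim17 (0.609), UPS for Trim35 (0.135), and the 3 groups of Trim37 lie within 0.0366.

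By point estimates alone, the order of the rearing groups differed among the members. No ratio behind these orders passed the threshold. Some orders rest on small gaps, such as 0.00661 between CTL and UPS for Trim68 (p = 0.93 in the authors' deposited table). CTL lay between LB and UPS for 4 genes (Trim2, Trim35, Trim37 and Trim68), LB between CTL and UPS for 2 (Trim26 and Trim45) and UPS between CTL and LB for 2 (Trim3 and Trim17). Over all 478 genes these shares were 37.0% for CTL, 30.1% for LB and 32.8% for UPS in the middle. The distance between the outer groups ran from 0.0366 (Trim37) to 0.609 (Trim17) on the log2 scale, and it was 0.102 for both Trim26 and Trim68.

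As a group the members were balanced between CTL and LB, with 4 positive and 4 negative ratios and a median log2 ratio of 0.0047, beside 0.0035 over all genes. Between CTL and UPS 6 of 8 were positive, with a median of 0.10 beside -0.0024 over all genes, where 233 of 478 were positive. Between LB and UPS 6 of 8 were positive as well, with a median of 0.10 beside -0.010 over all genes, where 210 of 478 were positive. Trim2, Trim26, Trim35, Trim45 and Trim68 were positive in both, but these comparisons share the UPS animals and are not independent of each other. The median size of the ratio over its SE was 0.872 for Trim genes and 0.858 for all genes between CTL and LB, 1.21 and 0.980 between CTL and UPS, and 1.52 and 1.04 between LB and UPS. No test was made of the members as a group.

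**Figure D3:**
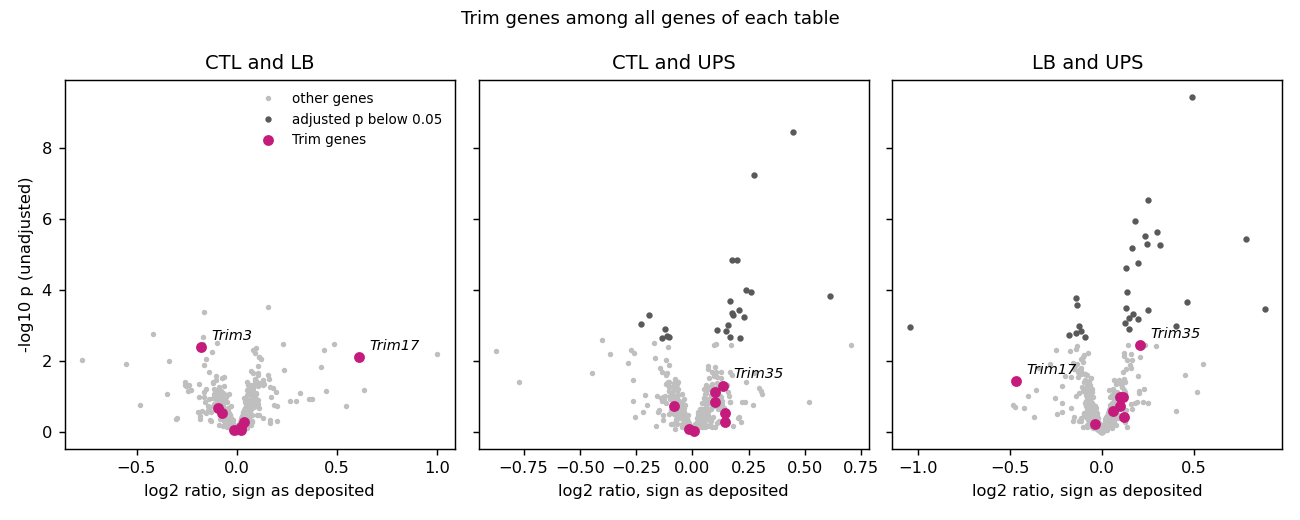
Log2 ratio (sign as deposited) against -log10 of the unadjusted p for all 478 genes in each pair of rearing groups, with Trim genes in magenta and genes past the threshold in dark grey. Trim35 lies just under the genes past the threshold between LB and UPS (p = 0.00357), and Trim3 and Trim17 lie high in the CTL and LB panel, where no gene passed.

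The precision sets what could have been seen. The recovered SE of 6 members ran from 0.0556 (Trim26) to 0.0746 (Trim68), above the median of 0.050 over all genes. To reach the p of the last gene past the threshold between LB and UPS (0.00212), these 6 needed log2 ratios of 0.182 to 0.244, or 1.13-fold to 1.18-fold. Trim45 needed 1.37-fold and Trim17 1.64-fold. Under the Benjamini-Hochberg adjustment a further gene with a somewhat larger p would also have passed, so slightly smaller ratios could have been called. The missing calls exclude neither smaller differences in these genes nor larger ones within the recovered intervals. For Trim35 between LB and UPS that interval reached 1.27-fold, beside the 1.16-fold needed for a p of 0.00212.

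Other genes of the ubiquitin system were described from 2 lists. These lists and those below were chosen with earlier results of these data known. Of all genes 0% passed between CTL and LB, 4.81% between CTL and UPS and 6.28% between LB and UPS. Between CTL and UPS, of 20 ubiquitin conjugation genes (conjugating enzymes and subunits of cullin, anaphase-promoting and other ligases), 6 were positive and 14 negative, with a median log2 ratio of -0.040 and 1 past the threshold. This was Cdc23, part of the cell cycle ligase APC/C, with a ratio of -0.135 and an adjusted p of 0.0461 in the authors' deposited table. Also negative in the authors' deposited table, and short of the threshold, were Cul1, the scaffold of SCF ligases, at -0.102 (adjusted p = 0.294) and Ube4b, a chain-elongating ligase, at -0.0814 (adjusted p = 0.304). Between CTL and LB 9 of the 20 were positive (median -0.0034) and between LB and UPS 7 of 20 (median -0.041), and none passed in either. Ube2d2a/b, a conjugating enzyme that many RING ligases can use, had a CTL and LB ratio of 0.0911 in the authors' deposited table (p = 0.0359, adjusted p = 0.413). Whether Trim genes differ from the other ubiquitin genes was not tested.

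The list of deubiquitinases, which take ubiquitin off, had 2 measured genes. Both had a positive ratio and passed between CTL and UPS, where 4.81% of all genes did (6.28% between LB and UPS). Usp2 was at 0.199 (adjusted p = 0.00171) and Stambpl1, a ubiquitin protease of the AMSH family, at 0.176 (adjusted p = 0.0199), per the authors' deposited table. In the LB and UPS pair the authors' deposited table has Usp2 at 0.196, which passed (adjusted p = 0.000802), and Stambpl1 at 0.142 with the same adjusted p as Trim35, 0.0519. Between CTL and LB neither passed. Psmd14, the deubiquitinase of the proteasome lid, was not on that list and is named after its values were seen. It was negative in the authors' deposited tables, at -0.0764 for CTL and UPS (adjusted p = 0.268) and -0.0983 for LB and UPS (adjusted p = 0.0778), and did not pass.

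Of 13 genes of nucleic acid sensing and the interferon response, the system in which Trim26 and Trim35 are known to act, only Tlr7 passed. It had a positive ratio in both UPS comparisons, in which 4.81% (CTL and UPS) and 6.28% (LB and UPS) of all genes passed. Tlr7, the receptor of single-stranded RNA, was at 0.449 between CTL and UPS (adjusted p = 1.65e-06) and 0.492 between LB and UPS (adjusted p = 1.66e-07) in the authors' deposited tables, beside 0.135 and 0.206 for Trim35. The CTL and LB ratio of Tlr7 was -0.043 in the authors' deposited table, beside -0.0718 for Trim35. Tlr7 was not among the 3 genes nearest to Trim35 by the distance used below, and a link between the 2 genes was not tested. The RNA receptor Tlr3 did not pass, with a CTL and LB ratio of -0.114 (p = 0.0628) in the authors' deposited table, beside -0.179 for Trim3. In the authors' deposited tables Tlr3 was at -0.0189 between CTL and UPS (p = 0.752), beside -0.0806 for Trim3. Between LB and UPS it was at 0.0946 (p = 0.119), beside 0.0984. Tlr3 was not among the 3 genes nearest to Trim3, and a link between Tlr3 and Trim3 was not tested. Between CTL and LB 10 of the 13 genes were positive (median 0.028) and 0 passed, with the interferon-induced Ifit3 at 0.637 (p = 0.065) in the authors' deposited table. Between LB and UPS 10 of the 13 were negative (median -0.038).

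Of 6 genes of NF-kB and inflammasome signalling 3 passed between CTL and UPS (4.81% of all genes did), in both directions. These were Nlrp3, the inflammasome sensor, at 0.228, and the bacterial receptors Tlr4 at 0.165 and Tlr2 at -0.194 in the authors' deposited table. Between LB and UPS (6.28% of all genes) Tlr4 (0.150) and the cytokine gene Il1b (-1.04) passed in the authors' deposited table, and between CTL and LB none did.

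**Figure D4:**
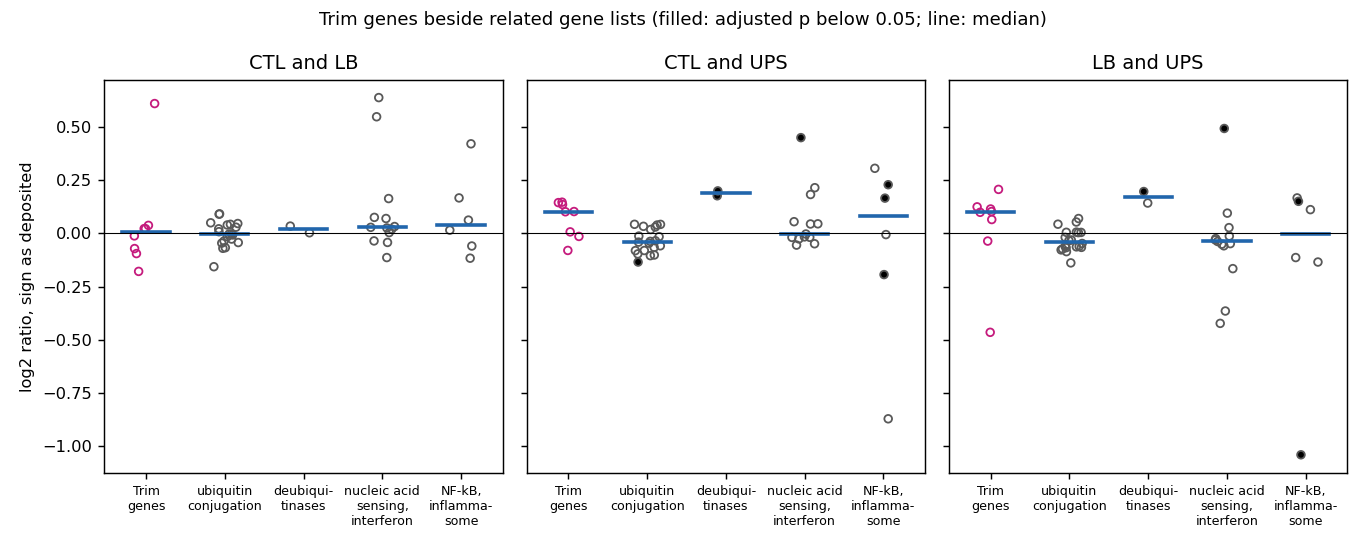
Log2 ratios (sign as deposited) of the 8 Trim genes and of 20, 2, 13 and 6 genes of related lists in each pair of rearing groups, with filled points past the threshold and a line at the median. Between CTL and UPS the median is 0.10 for Trim genes and -0.040 for ubiquitin conjugation genes, and no Trim gene is filled.

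Markers of other cells differed in the comparisons in which Trim35 had positive ratios. Of the 8 measured, Slc1a3 (astrocytes) and Stab1 (border macrophages) passed with positive ratios between CTL and UPS and between LB and UPS, and 0 passed between CTL and LB. Over all genes 4.81% passed between CTL and UPS and 6.28% between LB and UPS. For LB and UPS the authors' deposited table lists Slc1a3 at 0.250, Stab1 at 0.195, the astrocyte gene Glul at 0.154 and the neuronal gene Gad1 at 0.00294. The 8 ranged from -0.47 to 0.25 in that pair. Of the 10 microglial markers, Tmem119 and C1qa passed between LB and UPS, both positive. The part of any of these in the Trim ratios was not tested.

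The genes with the pattern most like that of Trim3, Trim17 and Trim35 were found by the distance between genes in ratio over SE, across CTL and LB and CTL and UPS, which cover 3 groups and share the CTL animals. Nearest to Trim35 were Glul (distance 0.362), the heat shock protein gene Hsp90ab1 (0.367) and Pmp22 (0.433), beside a median distance of 2.87 over all other genes. Nearest to Trim3 were the neutrophil cytokine receptor gene Csf3r (0.295), Prkab2, a subunit of AMP-activated kinase (0.387), and Olfml3, a microglia-enriched secreted protein (0.506). Nearest to Trim17 were the adaptor subunit Ap3m2 (0.224), the actin-binding Tmsb4x (0.298) and the acyl-CoA dehydrogenase Acadsb (0.408). In ratio these differ from Trim17: the CTL and LB ratio was 0.110 for Ap3m2 and 0.0987 for Tmsb4x in the authors' deposited table, beside 0.609. Likeness here is relative to each gene's own error, and none of these genes passed in any pair. The genes were picked as the nearest, so distances below the median were fixed in advance.

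A test of rearing over all 3 groups at once, added after the data had been seen, was rebuilt from the deposited ratios against CTL and the recovered SE. Trim35 had an F of 4.95 (p = 0.0117, adjusted p = 0.115 by Benjamini-Hochberg over 478 genes), Trim3 an F of 4.62 (p = 0.0154, adjusted p = 0.124) and Trim17 an F of 4.30 (p = 0.02, adjusted p = 0.142). The other members had a p from 0.191 (Trim26) to 0.856 (Trim37). No Trim gene passed at an adjusted p below 0.05, where 6.9% of all genes did, and 3 of 8 had an unadjusted p below 0.05, where 19.9% of all genes did. These 3 genes each had a different pair of outer groups or sign: LB and UPS for Trim35, and CTL and LB for Trim3 and Trim17, with opposite signs.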

How the data were processed

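Used here were 3 deposited tables, 1 per pair of groups. Per the file headers, each lists for 478 genes the log2 fold change, the same change as a linear ratio, a p-value and its Benjamini-Hochberg adjusted value, all as the authors computed them. The series text says that the authors took genes above 20 counts into a multivariate test and then compared pairs in nSolver's advanced analysis, adjusting for batch. The sources used here do not give normalization, software version or depth per library. No model was refitted: p-values were adjusted again over each table, and the deposited adjusted p gave the same calls (0, 23 and 30 genes). The other two log2 ratios differed by the LB and UPS ratio to within 0.003.

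SE were recovered from ratio and p with a t distribution of 42 residual degrees of freedom, which belong to 1 model of rearing and batch. Among 6 candidates this gave the smallest mismatch of SE between tables (median 0.329%, against 0.339% for 41 and 0.739% for 30), so 41, with sex added, lies close to it. The plan had allowed for deposited SE, which these tables lack. Calculations were made in Python 3.11.15 with SciPy 1.17.1 and tested on simulated data. The members, gene lists and tests were chosen with earlier results of these data known, so no list is independent support. All members were named, as were up to 4 genes per list with the smallest p in each pair and the 3 genes nearest to each member with an unadjusted p below 0.05. Pmp22 was also named for its rank. Promoter sequences are from RefSeq, GRCm38.p6; the tables name no genome build. Some genes that the rule names are left out of the text.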

Additional observations from a re-analysis of the deposited data

How the results depend on the processing

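Of the 169 alternative values computed, 164 stayed on the same side of the threshold with the same sign, or, for counts of genes, within 1.5 times. The other 5 all concern Trim35 between LB and UPS. The count of Trim genes past the threshold there went from 0 to 1 with a threshold of 0.1 on the adjusted p and to 1 with centring on the median and a normal test. The log2 ratio of Trim35 passed at 0.216 when centred, with a normal test (adjusted p = 0.0203) or a t test (adjusted p = 0.0395), and at 0.206 when not centred, with a normal test (adjusted p = 0.0298). Over all its alternatives the adjusted p ran from 0.0203 to 0.0742. Centring with the t test, the uncentred normal test and the adjustment of single genes over 3 tables were chosen after seeing the data. The normal test also raised the number of all genes called between LB and UPS from 30 to 41. Some of the 169 values could not have moved. The 24 ratios at 30 and the 24 at 41 degrees of freedom keep the deposited ratio and p. The member rule without a letter after the number keeps the same 8 genes. An adjustment stricter than Benjamini-Hochberg cannot lower counts of 0. The width of the intervals changed by at most 1.19% with 30 degrees of freedom. No paired analysis was possible because the tables hold no values per library, and for the same reason no animal, batch or sex could be left out.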
